A study of Homo sapiens with 4 samples.

Results

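The data covered the part of human chromosome 17 that holds most of RAP1GAP2, from the first exons of its main transcript to the end of the deposited contact matrix. The block was defined by position, as the bins that span chr17:2783501-3004500 (hg38), 10.6% of the 2000 bins of the matrix, which hold 22 non-overlapping windows of 10 kb. Each bin is a 10-kb window, and bins follow each other in steps of 1 kb, so neighbouring bins share most of their reads. Contacts were measured by Hi-C, in which cross-linked chromatin is cut and ligated so that sequenced read pairs join pieces of DNA that lay close together. ESC were H9 human embryonic stem cells, of WT genotype and untreated (2 libraries). ECTO were H9 cells, also of WT genotype, after neuroectodermal differentiation (2 libraries), which the study's methods describe as 5 days in medium with Noggin, an antagonist of BMP, and SB431542, an inhibitor of TGF-beta receptor kinases. Whether the libraries of a group came from separate cultures was not given in the sources used here, so the spread between them may be technical. The header of an ESC matrix and that of the ECTO matrix with its number name 1 and the same tag directory, and the assignment of libraries to ESC or ECTO therefore rests on their labels. Hi-C read pairs carry no expression values, so the cell types could not be checked against marker genes.

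RAP1GAP2 encodes a GTPase-activating protein that switches off Rap1, a small GTPase with roles in cell adhesion and secretion, and the protein is known from platelets and neurons. The gene (ENSG00000132359.17) lies on the plus strand at chr17:2755705-3037741 and runs past the end of the matrix. Its transcript RAP1GAP2-201 starts at 2796438, has 25 exons of which 14 start within the matrix, and has 86.2% of its length in the block. Most of the block is intron, with intron 2 of 104.7 kb (chr17:2800551-2905283) and intron 3 of 52.4 kb (chr17:2905369-2957758). The only other annotated gene in the block is the lncRNA ENSG00000262884 on the minus strand at chr17:2962248-2965895. Chromosomes fold into contact domains, within which pairs of loci meet more often than pairs at the same distance across a border, and many borders are held by the DNA-binding protein CTCF together with cohesin.

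RAP1GAP2 has 5 annotated protein-coding start positions in the matrix, of which those at 2755705 and 2777056 lie below the block and those at 2796438, 2853673 and 2939951 lie inside it. The promoters of the starts near 2853673 and 2939951 are shown because their windows had the clearest contact with each other among the gene starts. They are RefSeq promoter sequences on GRCh38.p14, from 250 bases before to 50 bases after the start, with CG dinucleotides in capitals. The first, at chr17:2853434-2853733, holds 44 CG dinucleotides and is 84.3% G and C. The second, at chr17:2939711-2940010, holds 16 and is 60.3% G and C, while the median of 35116 RefSeq promoters was 14 CG dinucleotides and 58.7% G and C.
RAP1GAP2 promoter at 2853684: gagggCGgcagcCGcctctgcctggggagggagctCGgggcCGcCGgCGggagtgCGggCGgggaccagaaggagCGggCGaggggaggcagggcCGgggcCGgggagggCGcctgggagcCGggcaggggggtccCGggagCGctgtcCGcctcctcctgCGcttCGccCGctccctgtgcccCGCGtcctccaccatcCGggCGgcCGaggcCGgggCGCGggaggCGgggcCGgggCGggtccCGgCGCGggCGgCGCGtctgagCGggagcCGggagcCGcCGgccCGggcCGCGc
RAP1GAP2 promoter at 2939961: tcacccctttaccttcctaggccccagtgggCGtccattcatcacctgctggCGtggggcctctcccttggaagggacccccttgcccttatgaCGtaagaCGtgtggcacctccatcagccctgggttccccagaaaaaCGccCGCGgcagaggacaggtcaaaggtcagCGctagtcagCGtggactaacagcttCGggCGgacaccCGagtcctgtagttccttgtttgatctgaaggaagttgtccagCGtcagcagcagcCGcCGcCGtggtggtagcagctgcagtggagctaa

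The sequence of the windows was searched on both strands for CCNCN directly followed by AGGNGGC, which resembles the core of the CTCF motif. It was found in 4 of the 22 non-overlapping block windows (18.2%) and in 24 of the 200 windows of the matrix (12.0%), and in 1.47% of the RefSeq promoters, though in none of those of RAP1GAP2 in the matrix. The third of the 4 block sites lies in a window of pairs named below, none of which passed the adjusted threshold between ESC and ECTO. All 4 sites are therefore shown, with 9 bases on each side and the core in capitals. They lie at chr17:2901259-2901270 on the plus strand, at chr17:2913809-2913820 and chr17:2930239-2930250 on the minus strand, and at chr17:3002532-3002543 on the plus strand, and each is printed along its own strand.
site at 2901259: tccaggactCCCCCAGGTGGCagaggctct
site at 2913809: ctgtttgctCCTCAAGGGGGCagttatgat
site at 2930239: tggtattggCCACAAGGGGGCctggtgagc
site at 3002532: cggttagatCCCCCAGGGGGCctgggtgaa
A match is a match of letters only, and binding was not measured.

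Every bin of the block had values in all 4 libraries. The deposited values were balanced, and the whole read pairs behind them could be recovered. The 22 block windows held 6966 and 6995 read pairs in ESC and 4386 and 4384 in ECTO, between 12.2% and 12.5% of those over the 148 windows measured in all libraries. In ECTO, more of these pairs joined pieces of the same window: 55.6% and 53.9% in ECTO against 37.9% and 38.7% in ESC. The rest of the matrix differed in the same way, with 45.5% and 44.5% in ECTO against 30.7% and 30.9% in ESC. Both groups' shares were higher in the block than outside it. Contact is given below as observed over expected, the value of a pair of bins divided by the mean that all equally distant pairs had in that library, for bins at least 20 kb apart. Balancing was done on this matrix alone, and bins at its end, with contacts on 1 side only, received larger factors: 2.77 and 2.71 in ESC and 1.86 and 1.65 in ECTO for the last bin, against medians of 1.34, 1.33, 1.13 and 1.10. The last window also had few read pairs within itself in ESC, at 0.682 and 0.615 times the median window, against 0.995 and 1.04 in ECTO. The parts of the matrix end and of local coverage in these factors were not tested. Larger factors raise the balanced values near the end, and the main contact results are given again on the unbalanced read pairs, corrected for distance alone. With 2 libraries per group the two-sided exact permutation test cannot give p below 0.33, the value for groups that do not overlap, so no ESC and ECTO difference of a single value can pass 0.05.

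Loci inside the block met more often than the average pair of the matrix at the same distance, in both cell types. Mean contact inside the block was 1.502 and 1.43 times the expectation in ESC and 1.35 and 1.39 times in ECTO. The group means were 1.47 ± 0.049 (SD, n = 2) and 1.37 ± 0.025 (SD, n = 2), a log2 difference of -0.10. On read pairs with distance alone the same libraries gave 1.37, 1.29, 1.27 and 1.32, and the groups overlapped, so the balanced difference does not stand apart from the handling of the values. Over the 210 pairs of non-overlapping windows, 3024 read pairs were observed against 2325.5 expected in ESC replicate 1, a ratio of sums of 1.30 with an exact 95% Poisson interval of 1.25 to 1.35. The lowest ratio of the 4, in ECTO replicate 1, was 1.22 (1.16 to 1.29). Intervals here and below cover counting error only.

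The excess grew with distance. Pairs from 20 to under 50 kb apart had 1.13 and 1.10 times the expected contact in ESC and 1.08 and 1.16 times in ECTO. From 100 to under 150 kb the values were 1.82 and 1.75 in ESC and 1.68 and 1.52 in ECTO. At 150 kb and more they were 2.38 and 2.12 in ESC and 1.75 and 2.01 in ECTO. This last band rests on windows near both ends of the block, and on read pairs with distance alone it came to 1.69 and 1.47 in ESC and 1.57 and 1.69 in ECTO. The rise with distance was thus present on both scales and smaller on the second, and on the second the groups overlapped.

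**Figure D1:**
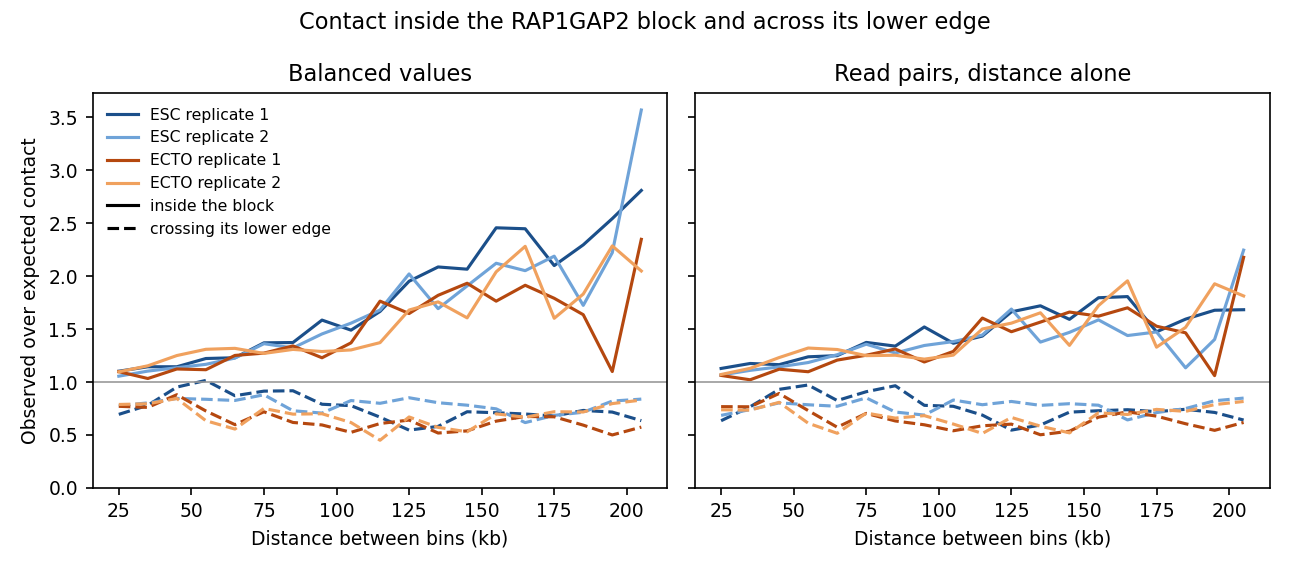
Mean observed over expected contact (y) against the distance between bins in kb (x, bands of 10 kb) for each of the 4 libraries, on balanced values (left) and on read pairs corrected for distance alone (right). Solid lines are pairs inside the RAP1GAP2 block and dashed lines pairs across its lower edge; solid lines lie above dashed ones throughout, and their rise above 100 kb is smaller on the right.

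The excess was not spread evenly over the block. When it was divided into 4 stretches of 53 bins, the first stretch had 0.948 and 0.908 times the expected contact with itself in ESC and 0.813 and 1.11 times in ECTO. The second stretch, which holds the start at 2853673, had 1.29 and 1.14 in ESC and 1.08 and 1.18 in ECTO. The third had between 1.04 and 1.07 in all 4 libraries. The fourth, at the matrix end, had 1.28, 1.36, 1.25 and 1.14, but 0.879, 0.941, 1.01 and 0.945 on read pairs with distance alone, so its balanced excess comes with the raised factors there. On balanced values, contact within a stretch was thus close to the average of the matrix for most of the block. With distance alone the first stretch had 0.778 and 0.722 in ESC and 0.773 and 0.961 in ECTO. The second then had 1.82, 1.51, 1.15 and 1.26 and the third 0.986, 1.05, 1.05 and 1.13, so the first 2 stretches lay farther from the average on that scale. Pairs farther apart than 2 stretches, which join the lower to the upper side of the block, had 2.06 and 1.91 in ESC and 1.76 and 1.72 in ECTO, and 1.61, 1.48, 1.56 and 1.57 with distance alone.

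**Figure D2:**
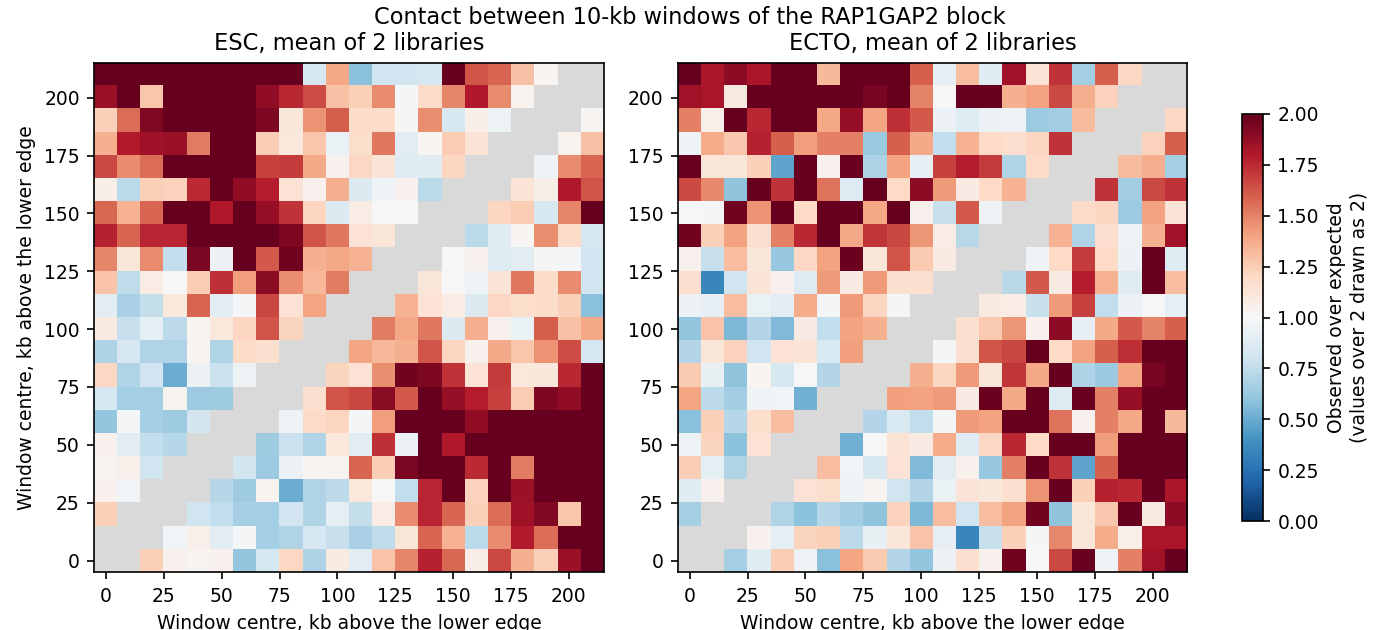
Mean observed over expected contact between the 22 non-overlapping 10-kb windows of the block in ESC (left) and ECTO (right), with both axes in kb above the lower edge of the block. Pairs under 20 kb apart are grey, and values over 2 are drawn as 2; the darkest red lies between the lower and the upper side of the block in both maps, and windows in the last 20 kb are raised by the balancing.

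Among single inside pairs with at least 10 expected read pairs over the 4 libraries, the strongest joined intron 2 to the far side of the block. Contact was at least 2 times the expectation in all 4 libraries in 7 of the 210 inside pairs (3.33%), in 2 of the 1583 crossing pairs (0.126%), and in 59 of the 10613 pairs of the whole matrix (0.556%). At least 1.5 times the expectation in all 4 was reached by 22 inside pairs (10.5%), 6 crossing pairs (0.379%) and 183 pairs of the matrix (1.72%). No inside pair was below 0.5 in all 4 libraries (0.00%), against 156 crossing pairs (9.85%) and 1693 pairs of the matrix (16.0%). The classes were not matched for distance or depth. Inside pairs held a mean of 6.28 to 14.4 read pairs per library and crossing pairs 0.851 to 1.68. Between 543 and 785 of the 1583 crossing pairs held no read pair in a given library. These shares therefore do not compare the classes at equal distance. With distance alone 3 inside pairs reached 2, and leaving out 1 library gave 8 to 11 inside pairs, the highest without ECTO replicate 1, and 11 to 13 crossing pairs.

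The inside pair with the highest lowest-library value joined window 2848000 (chr17:2843501-2853500), which ends just before the start at 2853673, to window 2988000 (chr17:2983501-2993500), 140 kb away. It was observed 20 and 13 times in ESC and 8 and 11 times in ECTO, which is 3.79, 2.55, 3.57 and 4.94 times the expectation. The exact 95% Poisson intervals of all 4 libraries lay above 1, the lowest bound being 1.36 in ESC replicate 2. Distance alone gave 3.50, 2.13, 2.99 and 3.92. The next 4 by the same order joined 2838000 to 2958000, 2838000 to 2988000, 2818000 to 2988000 and 2828000 to 2978000, with values between 2.07 and 5.09, so all 5 joined the stretch 2818000 to 2848000 to the stretch 2958000 to 2988000. The 2 crossing pairs past 2 times, 2398000 with 2998000 and 2458000 with 2968000, rested on 1 to 4 read pairs per library.

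The lowest inside pairs were short. Window 2838000 met window 2858000, which holds the start at 2853673, 22 and 21 times in ESC and 8 and 5 times in ECTO, which is 0.645, 0.649, 0.651 and 0.384 times the expectation at 20 kb. The others were the first block window with 2848000, between 0.558 and 0.672, and 2808000 with 2858000, between 0.528 and 0.780. All 3 ended at window 2848000 or 2858000 and came from below.

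Contact across the lower edge of the block was lower than contact inside it in all libraries. Pairs of a block bin with a bin below the edge, no farther apart than the block is long, had 0.723 and 0.775 times the expected contact in ESC and 0.609 and 0.686 times in ECTO (distance alone 0.730, 0.774, 0.621 and 0.682). Such pairs of the fourth stretch, at the matrix end, were not below the expectation, with 1.30 and 1.28 in ESC and 1.01 and 1.37 in ECTO. At matched distances, contact inside the block was 2.40 and 2.21 times the crossing contact in ESC and 2.36 and 2.31 times in ECTO, with means of 2.31 ± 0.13 and 2.33 ± 0.034 (SD, n = 2 each). Distance alone gave 1.96, 1.81, 2.15 and 2.15. Inside contact was the higher at every distance compared in each of the 4 libraries, though distances share bins and are not independent. The same ratio was computed for 4 stretches of the same length below the block, whose ends were set by length and not by borders. It lay between 0.555 and 0.614 for chr17:2571501-2792500, between 1.12 and 1.52 for chr17:2359501-2580500, between 0.573 and 0.639 for chr17:2147501-2368500 and between 0.492 and 0.652 for chr17:1935501-2156500. Contact inside these 4 stretches was between 0.703 and 0.907 times the expectation, below that inside the block. With distance alone it was between 0.770 and 1.01, still below the block. The ratio for chr17:2359501-2580500 was then between 1.21 and 1.64, closer to that of the block. No test was made between stretches.

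Contact passing over single windows was read from an insulation score. It is the log2 of the mean contact passing over a window between the 10 windows on either side, relative to its library mean. At the first block window (chr17:2783501-2793500) it was -0.35 and -0.36 in ESC and -0.65 and -0.63 in ECTO, rank 25 from the lowest of 104 windows. In ESC the score was lower below the block, with -0.78 and -0.59 at chr17:2693501-2703500, where ECTO had -0.48 and -0.40. The edge was thus not the lowest place in ESC. It was higher farther into the block, reaching 0.91 and 0.87 in ESC and 0.63 and 0.78 in ECTO at window 2898000 (chr17:2893501-2903500), which holds the motif match at 2901259 and had the highest score of the 104. This score takes in windows up to the matrix end, with their larger factors, and its value on read pairs is not given. With 5 windows on either side, which stops before the last 20 kb, window 2898000 had 0.774 and 0.768 in ESC and 0.514 and 0.717 in ECTO. That was again the highest, of 118 windows. With 10 on either side, windows above 2898000 have too few neighbours before the matrix end. The ECTO scores at the edge were lower than the ESC scores and did not overlap with them.

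With a reach of 5 windows, low scores lay in different places in the 2 cell types. At chr17:2683501-2693500, where PAFAH1B1 and CLUH end, ESC scored -0.79 and -0.70 and ECTO -0.31 and -0.29. At window 2738000 (chr17:2733501-2743500), inside CCDC92B, ESC scored 0.03 and 0.01 and ECTO -0.55 and -0.31. At window 2778000 (chr17:2773501-2783500), which holds the RAP1GAP2 start at 2777056, ESC scored -0.13 and -0.27 and ECTO -0.48 and -0.57. In ESC the lowest scores near the edge were thus at CLUH, while in ECTO low scores went on to the lower edge of the block. The difference has opposite signs at the first and the second of these windows, and the exact permutation p was 0.33 at each.

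**Figure D3:**
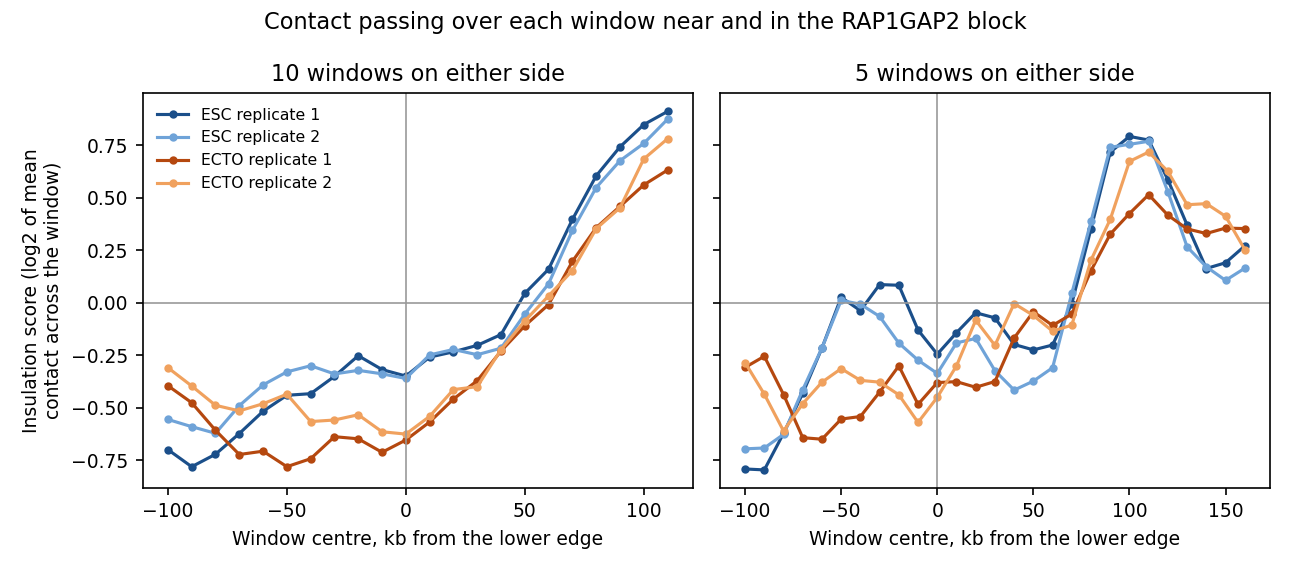
Insulation score (y, log2 of the mean contact passing over a window relative to the library mean) against the window's position in kb from the lower edge of the RAP1GAP2 block (x, block to the right of 0), with 10 windows (left) and 5 windows (right) on either side, for each library. All libraries score higher 100 kb into the block than at its edge. With 5 windows scores fall again farther in, and the ECTO libraries stay below the ESC libraries between about 50 kb below the edge and the edge.

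Over the whole region below the block that was compared (chr17:2059501-2792500), contact with the block was 0.872 and 0.870 times the expectation in ESC and 0.960 and 0.960 in ECTO, a log2 difference of 0.14, which fell to 0.04 with sums in place of means of ratios, and it varied from gene to gene. It was lowest with the body of PAFAH1B1, which encodes a dynein regulator needed for neuronal migration, at 0.563 and 0.599 in ESC and 0.551 and 0.664 in ECTO. With the SMG6 body, the gene of an endonuclease of nonsense-mediated decay and the farthest gene compared, it was 0.798 and 0.823 in ESC and 0.875 and 0.803 in ECTO. The groups overlapped at both genes. Between METTL16 and PAFAH1B1 it was 0.728 and 0.742 in ESC and 0.765 and 0.782 in ECTO, and overlapped with distance alone.

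Beyond PAFAH1B1, contact rose again at the gene-dense stretch from SRR to METTL16 (chr17:2299501-2517500), and more so in ECTO. This stretch holds SRR (serine racemase), TSR1 (ribosome maturation), SGSM2 (a modulator of small G proteins), MNT (a MAX-binding transcriptional repressor) and METTL16 (an RNA methyltransferase). Its contact with the block was 1.11 and 1.09 times the expectation in ESC and 1.39 and 1.45 times in ECTO. The group means were 1.10 ± 0.016 and 1.42 ± 0.040 (SD, n = 2 each), a log2 difference of 0.37, and the libraries did not overlap (exact permutation p = 0.33). Distance alone gave 1.07 and 1.05 in ESC and 1.42 and 1.43 in ECTO, so the difference was not smaller on the unbalanced read pairs. In read pairs over 462 window pairs, ESC had 579 and 568 against 552.6 and 554.1 expected, and ECTO had 397 and 446 against 301.0 and 316.4 expected. The ratios of sums had exact 95% Poisson intervals of 0.964 to 1.14 and 0.942 to 1.11 in ESC, which include 1, and of 1.19 to 1.46 and 1.28 to 1.55 in ECTO, which lie above it.

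By slices of 50 kb, contact in ECTO was highest at chr17:2359501-2418500, around the end of SGSM2 and MNT, with 1.69 and 1.80 in ECTO against 1.25 and 1.10 in ESC. At chr17:2309501-2368500 it was 1.49 and 1.39 in ECTO against 0.837 and 1.01 in ESC. The log2 difference was 0.64 at this second slice and 0.57 at the first, an order that turned with distance alone (0.62 and 0.65). At chr17:2459501-2518500, in the first part of METTL16, the groups overlapped, at 0.993 and 1.24 in ECTO against 0.914 and 1.08 in ESC. From the side of the block, the first stretch of 53 bins had 0.989 and 0.903 in ESC and 1.32 and 1.44 in ECTO with SRR to METTL16. The fourth stretch, at the matrix end, was already at 1.41 and 1.61 in ESC, and 1.74 and 1.62 in ECTO. The difference between ESC and ECTO was thus largest, at a log2 of 0.54, for the stretch nearest to the lower edge, and smallest, at 0.16, for the stretch farthest from it. With distance alone it was again largest for the first stretch, at 0.65, but smallest for the second, at 0.26.

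**Figure D4:**
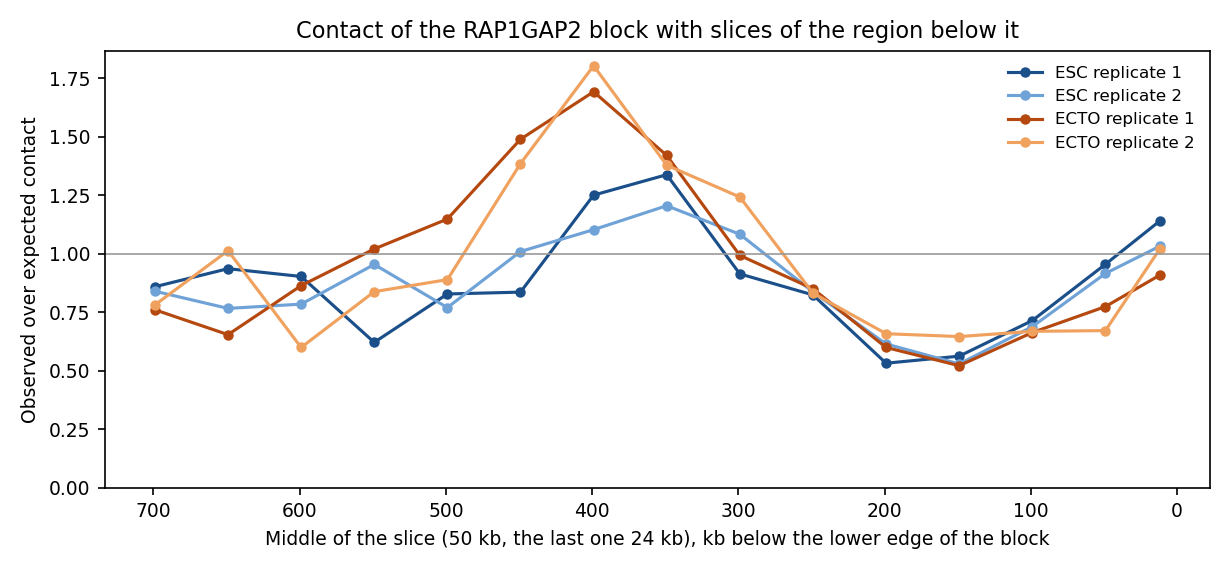
Mean observed over expected contact of the RAP1GAP2 block (y) with slices of the region below it (x, middle of the slice in kb below the lower edge) for each library. Contact is lowest near PAFAH1B1, 150 to 200 kb below the edge, and rises near MNT, about 400 kb below it, where both ECTO libraries (1.69 and 1.80) lie above both ESC libraries (1.25 and 1.10).

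Next to the edge the difference ran the other way. Contact of the block with CLUH, which encodes an RNA-binding protein for messages of mitochondrial proteins, and CCDC92B (chr17:2681501-2759500) was 0.883 and 0.824 in ESC and 0.740 and 0.623 in ECTO. The means were 0.854 ± 0.042 and 0.682 ± 0.083 (SD, n = 2 each), a log2 difference of -0.32, and the libraries did not overlap. Distance alone gave 0.829 and 0.772 in ESC and 0.7504 and 0.622 in ECTO. With the first part of RAP1GAP2 (chr17:2750501-2792500) contact was 1.10 and 1.01 in ESC and 0.904 and 0.963 in ECTO. Crossing pairs from 50 to under 100 kb apart were at 0.890 and 0.786 in ESC and 0.644 and 0.674 in ECTO, and those from 20 to under 50 kb at 0.836, 0.815, 0.815 and 0.813, where the groups overlapped.

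The start windows inside the block were then paired with each other and with the other gene starts. The 2 starts at 2853673 and 2939951, in windows 2858000 and 2938000, are 80 kb apart by window and were joined by 24 and 24 read pairs in ESC against 13.1 and 12.6 expected, and by 15 and 11 in ECTO against 4.30 and 5.21 expected. This is 1.84 and 1.90 times the expectation in ESC and 3.49 and 2.11 times in ECTO. All 4 exact 95% Poisson intervals lay above 1, from a lowest bound of 1.05 in ECTO replicate 2 to a highest of 1.95 in ECTO replicate 1. In these 2 windows alone ECTO was higher, with a limma log2 fold change of 0.42 ± 0.33 (SE) and an adjusted p of 0.81, which did not pass. With 1 window more on either side the order turned, to a mean of 2.33 in ESC and 1.72 in ECTO, so no direction is drawn for this pair. The start at 2796438, that of the main transcript, met the start at 2853673 in 9, 7, 4 and 3 read pairs, a mean of 0.661 times the expectation in ESC and 0.735 times in ECTO. It met the start at 2939951 in 6, 6, 4 and 1, a mean of 1.34 in ESC and 0.989 in ECTO, where 1 library decided the ECTO value.

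Across the lower edge, counts between starts were mostly too low to compare. The 33 crossing start pairs held between 0 and 45 read pairs summed over the 4 libraries, and TSR1 and SGSM2 share a window, so their pairs are the same. The start at 2853673 met the window of the CCDC92B start 14 and 17 times in ESC and 2 and 1 times in ECTO, which is 1.29 ± 0.24 and 0.368 ± 0.22 times the expectation (SD, n = 2 each). With 1 window more on either side the means were 0.727 in ESC and 0.490 in ECTO, so the ESC value above 1 rests on the single windows. Its limma log2 fold change was -1.60 ± 0.54 (SE), with an adjusted p of 0.80. With the CLUH start it was met 7, 8, 0 and 3 times. With the PAFAH1B1 start it was met 3, 2, 1 and 0 times. With the MNT start it was met 5, 5, 0 and 1 times, a mean of 2.37 in ESC and 0.634 in ECTO (2.03 and 1.82 with 1 window more on either side). The start at 2939951 met MNT 3, 2, 1 and 0 times, which is 2.85 and 1.40 times the expectation in ESC and 2.10 and 0 times in ECTO, so the groups overlapped. Both means were lower in ECTO, opposite to the slice around MNT, on counts too low to compare. The starts at 2796438 and 2939951 met PAFAH1B1 in 0, 1, 0 and 1 and in 0, 0, 0 and 1 read pairs.

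Window 2858000 was also paired with the window just below that of the start at 2939951. With window 2928000 (chr17:2923501-2933500), which holds the motif match at 2930239 shown above, it had 40 and 50 read pairs in ESC against 14.7 and 14.1 expected, and 4 and 9 in ECTO against 4.44 and 4.85 expected. That is 2.72 and 3.54 times the expectation in ESC and 0.902 and 1.86 times in ECTO. Both ECTO intervals include 1 (0.246 to 2.31 and 0.849 to 3.52), and both ESC intervals lie above it (1.94 to 3.70 and 2.62 to 4.66). One window further on, at 2938000, no direction is drawn, as given above. The limma log2 fold change of the pair with 2928000 was -1.33 ± 0.38 (SE), with an unadjusted p of 0.0154 and an adjusted p of 0.80, so the difference between ESC and ECTO did not pass over all pairs tested.

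Window 2858000 was also covered unequally. Read pairs with both ends within it numbered 218 and 196 in ESC and 108 and 130 in ECTO, which is 1.98 and 1.70 times the median window in ESC and 1.01 and 1.22 times in ECTO. Window 2878000 was similar, at 1.86 and 1.76 in ESC and 1.19 and 1.06 in ECTO. The windows below the edge at CCDC92B and the first start of RAP1GAP2 shared this, with 1.69 and 1.43 in ESC against 1.10 and 1.04 in ECTO at window 2758000. Counting all read pairs, window 2858000 was at 1.58 and 1.49 times the median in ESC and at 1.01 and 1.14 times in ECTO. Balancing divides this coverage out. Without it, the second stretch of the block had 1.82 and 1.51 times the expected contact with itself in ESC and 1.15 and 1.26 in ECTO. The part of coverage in the contacts of this window was not tested.

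**Figure D5:**
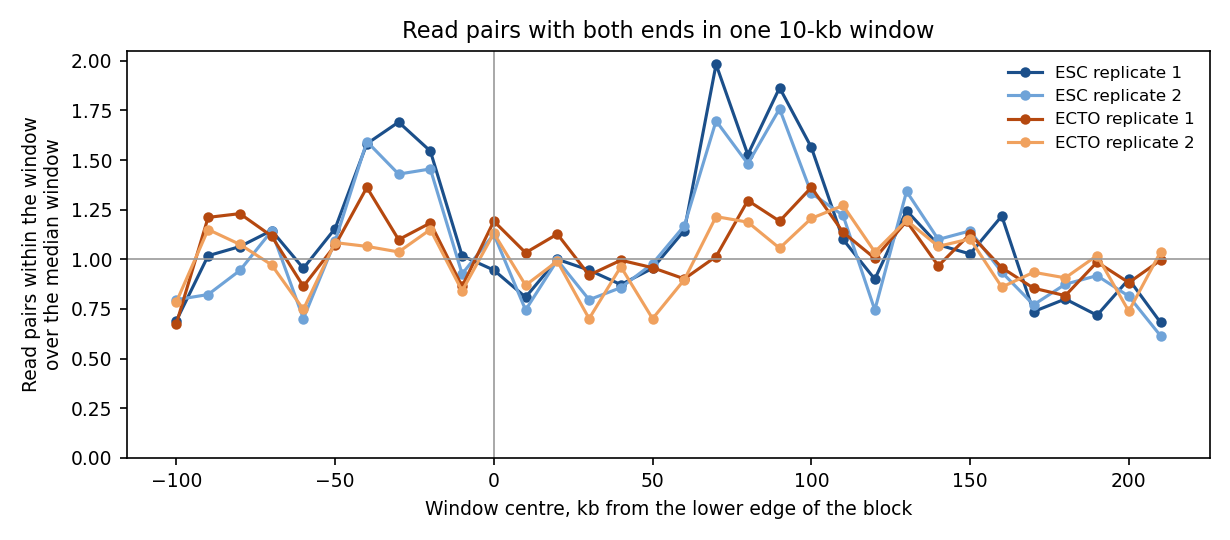
Read pairs with both ends in one 10-kb window, divided by the median window of the same library (y), against the window's position in kb from the lower edge of the RAP1GAP2 block (x). The ESC libraries rise above the ECTO libraries 70 to 90 kb into the block, at the start at 2853673 and after it (1.98 and 1.70 against 1.01 and 1.22 at 70 kb), and again 20 to 40 kb below the edge.

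Fitted over all 4525 window pairs that passed the filter on low values, no pair of the matrix was called between ESC and ECTO at a Benjamini-Hochberg adjusted p under 0.05 in limma (0 of 4525, 0%), nor by voom and limma on the recovered read pairs. The smallest adjusted p was 0.80 in limma on balanced values and 0.62 by voom and limma. At an unadjusted p under 0.05 there were 231 pairs (5.10%) in the matrix (324 by voom and limma), 17 of the 210 inside pairs (8.10%) and 27 of the 701 crossing pairs tested (3.85%). All 210 inside pairs passed the filter, against 701 of 1583 crossing pairs. Of the inside pairs, 125 were lower in ECTO and 85 higher, with a median log2 fold change of -0.12, against -0.02 over all pairs tested. With scaling within each distance 115 were lower and the median was -0.05, and by voom and limma 116 were lower and the median was -0.04, against 0.18 over all pairs tested there. Of the 462 window pairs with SRR to METTL16, 243 passed the filter. Among these 148 were higher in ECTO, with a median of 0.44. Of the 154 with CLUH and CCDC92B, 144 passed, of which 97 were lower, with a median of -0.44. Over all pairs tested, 2233 of 4525 were higher. A pair with few reads can pass the filter through the group where it is high. With the filter 359 crossing pairs were higher and 342 lower, and without it 687 were higher and 758 lower. No direction is therefore drawn from the counts with SRR to METTL16.

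The 3 block pairs with the lowest p among those higher in ECTO were 2708000 with 2998000 (read pairs 0, 0, 2 and 2), 2498000 with 2798000 (0, 1, 4 and 3) and 2928000 with 2948000 (20, 20, 20 and 15). Only the last rests on more than a few reads, with a log2 fold change of 0.83 ± 0.24 (SE) and an adjusted p of 0.80 in limma. Among those lower in ECTO they were 2828000 with 2918000 (16, 14, 3 and 2), 2798000 with 2998000 (8, 9, 2 and 3) and 2858000 with 2928000. Of these 6 pairs 4 were inside the block. Windows of these pairs hold the motif matches at 2913809, 2930239 and 3002532. Matches lie in 4 of the 22 block windows (18.2%). A pair has 2 windows, so the share of pairs with a match is higher than this, and it was not computed. The 6 pairs were chosen by p and none passed, so nothing is drawn about a site.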

How the data were processed

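The values are balanced Hi-C contact signal of 2 ESC and 2 ECTO libraries. Per the labels and the methods, the authors aligned paired ends to hg38 with Bowtie2 and built the matrices with HOMER, and the deposited signal is balanced within each library so that all bins with a value have the same row total. Versions are not given in the sources used here. Whole read pairs were recovered for 100% of values (tolerance 0.1). Libraries held 57025, 57554, 35199 and 35484 read pairs over 148 windows. The block is the 212 bins named 2788000 to 2999000, each a 10-kb window starting 4.5 kb below its name. Each bin pair at least 20 kb apart was divided by the mean at its distance. Insulation used 10 windows on either side. limma 3.58.1 in R 4.3.3 tested log2(signal + 1) per window pair, after scaling each library's total, for pairs above the median level, with Benjamini-Hochberg adjustment at 0.05. In simulated data at this depth, 50.5% of 200 pairs changed 8-fold in ECTO against ESC were recovered among 4035 pairs tested. Named pairs had at least 10 expected read pairs and were the 5 highest inside, the 5 highest crossing and the 3 lowest inside, and for limma the 3 with the lowest p in each direction; the other pairs were named after their values were seen. The block, the lists and the rules were chosen with earlier results of these data known.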

Additional observations from a re-analysis of the deposited data

How the results depend on the processing

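The change inside the block stayed negative (log2 -0.13 to -0.04) in all alternatives run. That of crossing contact over the whole region compared stayed positive (0.04 to 0.24) in all of them. Crossing pairs no farther apart than the block is long changed the other way, by -0.21 on balanced values and with distance alone. The change with SRR to METTL16, added after seeing the data, stayed at 0.34 to 0.51. Of 159 alternative values, 111 moved by less than the spread between replicates or kept their call, 45 moved by more and 3 reversed. With distance alone on read pairs, contact inside was 1.33 in ESC and 1.30 in ECTO, crossing contact 0.904 and 0.987, the inside over crossing ratio 1.89 and 2.15, and 3 inside pairs reached 2. Without the last 20 bins these were 1.37 and 1.26, 0.829 and 0.925, and 1.92 and 1.97. With sums in place of means they were 1.32 and 1.27, 0.808 and 0.829, and 1.72 and 1.94. With a same-distance mean that leaves out the block, crossing contact was 0.855 in ESC and passed to 1.01 in ECTO. From 30 kb on, ECTO contact inside was 1.40 and the ratio 2.39. Non-overlapping windows gave crossing contact of 0.877 and 0.9702 and an ECTO ratio of 2.38. At the threshold of 1.5, 22 inside and 6 crossing pairs passed, and with windows moved by 5 kb 7 crossing pairs passed. Leaving out 1 library gave 8 to 11 inside pairs, the highest without ECTO replicate 1, and 11 to 13 crossing pairs, against 7 and 2. Edge insulation in ESC and ECTO was -0.29 and -0.42 with 5 windows on either side, -0.37 and -0.50 with 20, and -0.45 and -0.76 on read pairs. The median of the 3 start pairs inside the block was 1.34 in ESC and 0.989 in ECTO. With 1 window on either side it was 1.25 and 1.20, with distance alone 1.02 in ESC, and in ECTO it was 1.60 without ECTO replicate 2 and 0.616 without ECTO replicate 1. That of the crossing start pairs was 0.785 in both, 0.894 in ECTO with 1 window on either side, and 0.596 to 0.725 in ECTO with 1 library left out. Windows merged 2 by 2 gave 1 called pair in the matrix, and it was not in the block. With the replicate number as a block, limma called 2 pairs of the matrix and 0 of the block, against 0 and 0. Deviations of same-numbered libraries from their group means had a correlation of -0.00659 over 4525 window pairs. With few read pairs per window pair, this value cannot show whether same-numbered libraries were handled together. All other limma alternatives called 0 pairs. The cause of these shifts was not tested. Depth limits single pairs: inside pairs held a mean of 6.28 to 14.4 read pairs per library and crossing pairs 0.851 to 1.68.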
